A study of Mus musculus with 24 samples.

Results

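The cell-cycle and proliferation genes of SIM-A9 cells were followed through 8 treatment groups. SIM-A9 is an immortalised mouse microglial cell line that divides in culture. The 44 genes were a fixed list of symbols, and all 44 were found among the 54838 gene identifiers of the count table. They were read as 3 lists: 12 G1 genes (Myc, cyclins D and E, the inhibitors Cdkn1a and Cdkn1b, and E2F factors), 13 S-phase genes (the replication licensing and fork genes Mcm2 to Mcm7, Cdc6, Cdt1, Gins2 and Pcna, and the nucleotide enzymes Rrm1, Rrm2 and Tyms) and 19 G2/M genes (cyclins A and B, mitotic kinases, spindle and kinetochore genes, Mki67, Top2a, Foxm1 and Birc5). A low-count filter that kept 13116 genes kept 43 of the 44, which were 11 G1, 13 S and 19 G2/M genes. E2f7, an atypical E2F repressor, was the gene left out: 23 of the 24 libraries held no read of it, and 1 Di-2-ANEPEQ library reached 0.0401 CPM (read counts relative to library size, the unit of levels throughout).

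Poly-A RNA was sequenced from 3 libraries in each group. The groups included control, LPS (bacterial lipopolysaccharide, the positive control for inflammation), and 2 single-walled carbon nanotube probes, (GT)6 SWCNT and carboxylated SWCNT (COOH SWCNT). The others were the calcium dye Fura-2, 2 dyes that report membrane potential (DiBASC2, Di-2-ANEPEQ), and AAV (adeno-associated virus). Every treatment lasted 2 h, and the labels state no dose. For all 8 groups, control included, an addition of 30 µL at 10x concentration to 270 µL of medium is listed. In all 8 groups, controls included, the cells had grown in 10% FBS and 5% horse serum and were moved to serum-free medium 2 h before the treatment, so they had been without serum for 4 h when RNA was taken. No group was kept in serum, and 1 cell line stands for microglia. The labels do not say whether the 3 libraries of a group came from separate cultures, so p-values measure the spread between these libraries, which may be technical.

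The cell cycle is driven by cyclin-dependent kinases, whose activity rises and falls with the cyclins bound to them. In G1, growth signals raise Myc and the D cyclins, the CDK inhibitors p21 (Cdkn1a) and p27 (Cdkn1b) hold the kinases back, and release of E2F from RB proteins switches on the genes of DNA synthesis. Later, FOXM1 and the DREAM and MYB-MuvB complexes control the genes of G2 and mitosis. Myc, Ccnd1 and Cdkn1a are also known as genes whose transcripts turn over fast and respond within hours to signals, while S and G2/M transcripts follow the position of cells in the cycle. In macrophages, LPS is known to slow division.

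Total counts ran from 17364272 to 29259221 per library, and the 44 genes took 0.763% to 0.860% of them. The biological coefficient of variation over the tested genes was 4.12%, and the 24 pairs of replicate libraries differed by more than sampling noise (chi-square per degree of freedom 2.52 to 20.5). Of 12 microglia and macrophage markers, Csf1r stood at 461 to 553 CPM and Cd68 at 723 to 989 CPM, while the homeostatic markers P2ry12, Tmem119 and Aif1 did not exceed 5.32 CPM in any library. The summed level of the 12 lay between 2509 and 2760 CPM over the 24 libraries. Defining markers of other cell types were at 0 in every library (Syt1, Mog, Dcn, Cldn5) or, for Gfap and Cd3e, did not exceed 0.369 CPM. All treatments were compared with the same 3 control libraries, so their differences share the noise of those libraries. The index numbers in the labels run in blocks by group, so library order and group cannot be told apart.

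Promoter motifs set the S and G2/M lists apart, and the G1 list less clearly. Promoter sequence was not used to choose the lists. They do follow the known E2F and MuvB controls described above, so the difference is no independent support for them. RefSeq windows of 300 bases (250 before to 50 after the start site, GRCm38.p6) were matched by symbol for 34 of the 44 genes: 8 G1, 11 S and 15 G2/M genes. They were searched on both strands for an E2F site (TTTCCCGC, TTTGGCGC, TTTCGCGC or TTTGCCGC), for the cell-cycle homology region CHR (TTTGAA) that MuvB complexes bind, and for the CCAAT box. An E2F site lay in 6 of 11 S windows (54.5%), 2 of 8 G1 windows (25%) and 1 of 15 G2/M windows (6.67%), against 2.26% of all 32851 windows and 4.06% of the windows of tested genes. A CHR lay in 11 of 15 G2/M windows (73.3%), 1 of 11 S windows (9.09%) and 1 of 8 G1 windows (12.5%), against 17.9% of all windows. A CCAAT box lay in 14 of 15 G2/M windows (93.3%), 8 of 11 S windows (72.7%) and 4 of 8 G1 windows (50%), against 37.4% of all windows. A match describes letters and is no evidence of binding.

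**Figure D1:**
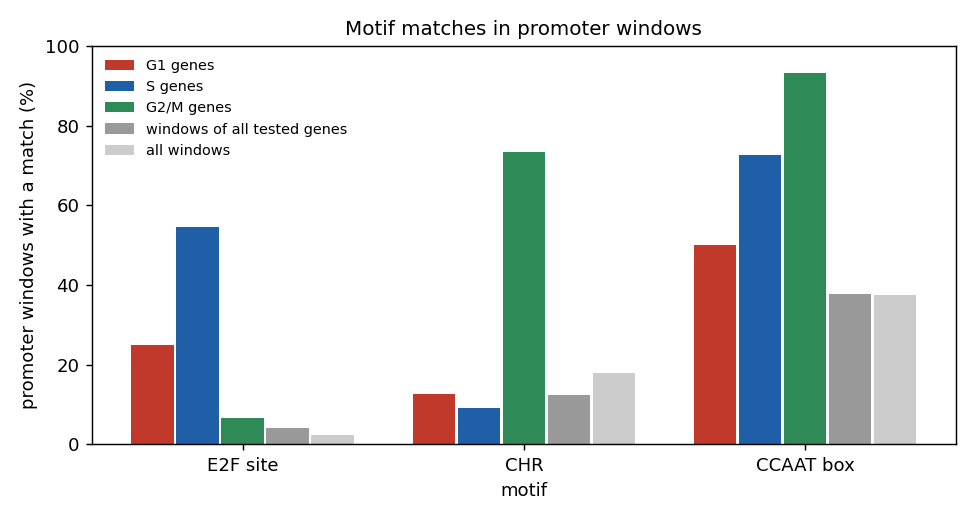
Share of promoter windows (percent) with an E2F site, a CHR or a CCAAT box among G1, S and G2/M genes, beside the windows of all tested genes and all windows. The E2F bar is highest for S genes (54.5%), and the CHR bar is highest for G2/M genes (73.3%).

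The stretch from 200 to 11 bases before the start site shows the difference in 5 genes: Cdkn1a, which rose after 3 treatments, the S genes Mcm5 and Mcm6, and the G2/M genes Cdc20 and Mki67. Sequences are from RefSeq on GRCm38.p6, written 5′ to 3′ on the strand of the gene, and capitals mark the matches on either strand to the E2F, CHR and CCAAT letters. The Cdkn1a stretch holds none of the 3. The S and G2/M genes shown all hold matches, but not every gene of their lists does. In their full windows Mcm2, Pcna, Rrm1, Rrm2 and Tyms held no E2F site, and Ccnb1, Bub1, Cenpe and Birc5 held no CHR. A run such as TTTCGCGCCAAA in Mcm5 holds overlapping matches on the 2 strands.
Cdkn1a (chr17:29090779-29090968, plus strand): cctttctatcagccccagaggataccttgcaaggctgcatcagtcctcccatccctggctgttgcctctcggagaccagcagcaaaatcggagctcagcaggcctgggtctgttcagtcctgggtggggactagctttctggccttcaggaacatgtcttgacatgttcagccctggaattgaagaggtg
Mcm5 (chr8:75109309-75109498, plus strand): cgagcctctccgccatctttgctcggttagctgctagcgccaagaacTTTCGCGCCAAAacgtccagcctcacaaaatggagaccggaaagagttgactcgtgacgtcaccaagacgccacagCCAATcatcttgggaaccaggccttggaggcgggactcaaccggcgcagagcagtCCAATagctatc
Mcm6 (chr1:128359716-128359905, minus strand): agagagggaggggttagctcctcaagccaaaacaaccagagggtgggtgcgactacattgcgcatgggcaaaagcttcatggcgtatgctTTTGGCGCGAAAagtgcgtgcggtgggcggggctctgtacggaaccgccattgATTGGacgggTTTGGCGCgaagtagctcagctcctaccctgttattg
Cdc20 (chr4:118437354-118437543, minus strand): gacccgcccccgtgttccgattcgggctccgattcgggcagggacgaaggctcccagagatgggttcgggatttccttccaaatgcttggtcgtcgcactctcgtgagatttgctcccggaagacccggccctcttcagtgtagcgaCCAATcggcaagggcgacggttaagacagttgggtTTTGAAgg
Mki67 (chr7:135716390-135716579, minus strand): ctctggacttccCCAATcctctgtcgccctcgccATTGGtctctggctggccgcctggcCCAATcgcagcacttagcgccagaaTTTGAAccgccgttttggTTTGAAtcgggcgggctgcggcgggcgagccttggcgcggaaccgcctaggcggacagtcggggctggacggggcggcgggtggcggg

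In the control cells S and G2/M genes were well expressed, and Myc was low. Levels of different genes are compared as CPM per kb of exon, since longer genes collect more reads. Pcna, the sliding clamp of DNA polymerases, was highest at 214 ± 2.85 CPM per kb (SD, n = 3), followed by the helicase subunits Mcm3 (111 ± 2.29), Mcm6 (97.5 ± 1.31) and Mcm5 (95.7 ± 4.72), whose last pair did not differ beyond their spread. Mki67, the proliferation marker, stood at 88.0 ± 4.80 CPM per kb and the mitotic cyclin Ccnb1 at 72.7 ± 2.14. Among G1 genes, Ccnd1 was highest at 39.3 ± 0.822 CPM per kb and E2f1 stood at 21.7 ± 0.756. Cdkn1b was at 4.45 ± 0.343 CPM per kb and Myc at 0.872 ± 0.0155, the lowest level of the 43 tested genes. In a bulk library, fewer cells in a phase and less RNA per cell cannot be told apart.

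**Figure D2:**
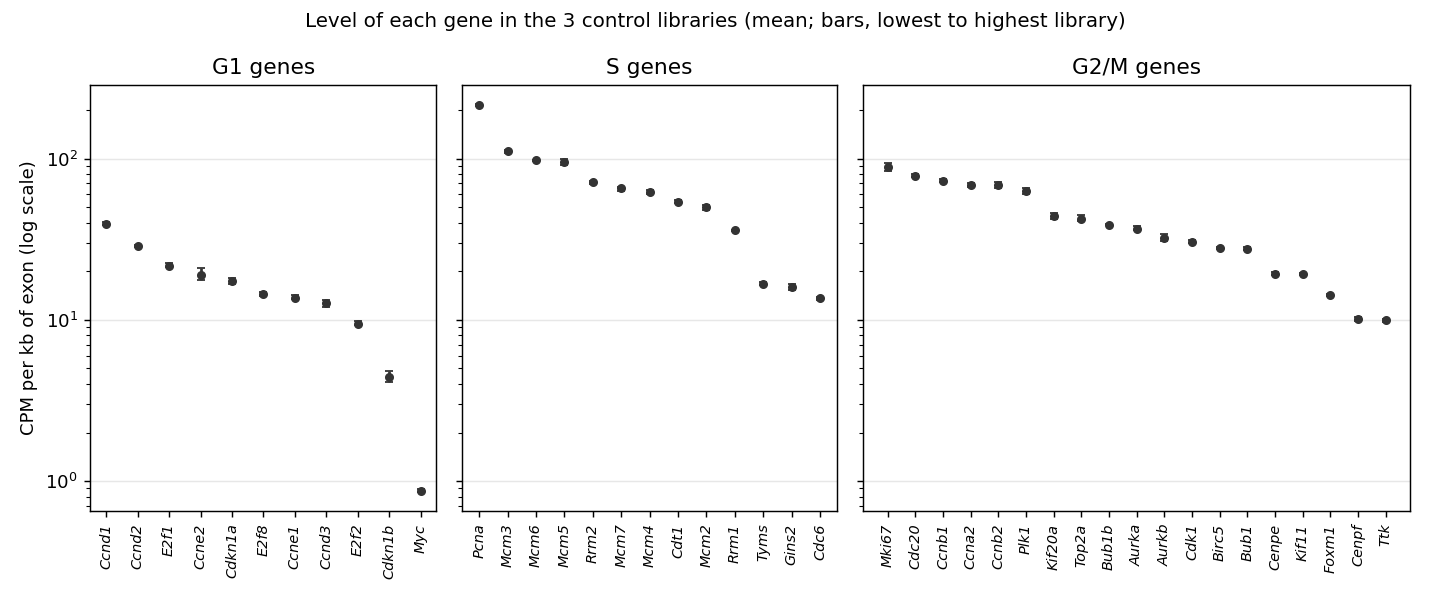
Level of each tested gene in the 3 control libraries in CPM per kb of exon (log scale), as the mean with a bar from the lowest to the highest library, by list. Pcna is highest (214) and Myc lowest (0.872).

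The response to the treatments differed by list: G1 genes moved most after LPS and (GT)6 SWCNT, and most S and G2/M genes stayed close to control everywhere. Calls below rest on edgeR's quasi-likelihood test, with p-values adjusted by Benjamini and Hochberg's method over all 13116 tested genes and a threshold of 0.05. LPS called 28.3% of all tested genes (13.8% higher, 14.5% lower) and 19 of the 43 cell-cycle genes (44.2%), 3 higher and 16 lower. By list these were 9 of 11 G1, 2 of 13 S and 8 of 19 G2/M genes. (GT)6 SWCNT called 20.4% of all genes (9.90% higher, 10.6% lower) and 16 of the 43 (37.2%), which were 9 G1, 2 S and 5 G2/M genes. COOH SWCNT called 20% of all genes (9.39% higher, 10.6% lower) and 11 of the 43 (25.6%), which were 3 G1, 4 S and 4 G2/M genes.

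The dyes and AAV called few cell-cycle genes. Fura-2 called 0.252% of all genes and none of the 43, with 11 of them at an unadjusted p under 0.05, and DESeq2 called 1 G2/M gene. DiBASC2 called 5.47% of all genes (1.82% higher, 3.64% lower) and 2 of the 43. Di-2-ANEPEQ called 3.08% (0.686% higher, 2.39% lower) and 3 of the 43. AAV called 5.00% (1.84% higher, 3.16% lower) and 3 of the 43. In these 4 comparisons the share called among the 43 genes ran from 0% to 6.98%. The 95% interval of the fold change lay within 1.25-fold of control, up or down, for 42 of 43 genes in Fura-2 and in DiBASC2 and for 40 in Di-2-ANEPEQ and in AAV.

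A single test of any difference among the 8 groups called 56.7% of all genes and 37 of the 43 cell-cycle genes: 11 of 11 G1, 10 of 13 S and 16 of 19 G2/M genes. The 6 that were not called were the S genes Mcm2, Mcm3 and Rrm1 and the G2/M genes Bub1 (adjusted p = 0.0528), Mki67 (0.153) and Kif11 (0.737). Upper-quartile scaling changed the split of all called genes more than it changed the count. With it 35.4% of the genes called in LPS were higher (48.7% with TMM factors), 54.9% in DiBASC2 (33.3%) and 26.3% in AAV (36.7%). The median of all genes moved by less than 0.1 (log2) under this scaling in each comparison with control.

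**Figure D3:**
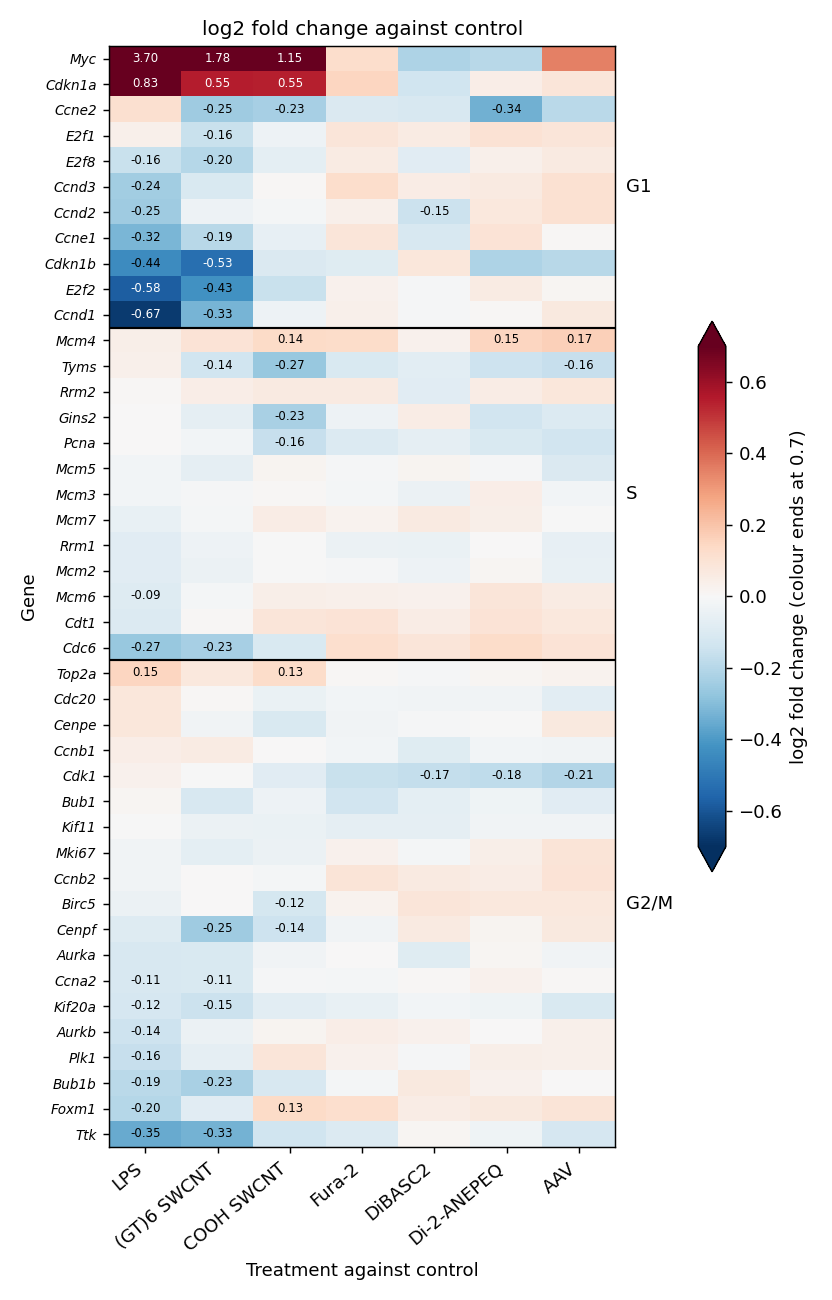
log2 fold change of the 43 tested genes (rows, by list) in each treatment against control (columns), with colour ending at 0.7 in either direction and the value printed where the gene was called. Myc and Cdkn1a are the darkest positive rows in LPS and both nanotube groups, Ccnd1 is negative in LPS (−0.67) and (GT)6 SWCNT (−0.33), and most S and G2/M rows are pale, with Ttk (−0.35 and −0.33) the darkest G2/M row in the same columns.

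Myc (ENSMUSG00000022346.15, chr15:61985391-61990374 in GENCODE M21 on GRCm38) encodes the transcription factor that drives growth and entry into S phase. In the control libraries it stood at 2.42, 2.34 and 2.35 CPM. It reached 29.9, 31.1 and 31.2 CPM in LPS. The (GT)6 SWCNT libraries held 8.04, 8.38 and 7.91 CPM and the COOH SWCNT libraries 6.37, 5.26 and 4.13. Every library of these 3 groups lay above every control library, and the LPS, (GT)6 and COOH ranges did not overlap each other. Myc rose by 3.70 ± 0.143 on the log2 scale (SE) in LPS, 12.97-fold, with an adjusted p of 1.82e-22. It rose by 1.78 ± 0.167 in (GT)6 SWCNT (3.43-fold, adjusted p = 8.39e-11) and by 1.15 ± 0.177 in COOH SWCNT (2.23-fold, adjusted p = 5.56e-06). These calls held under every alternative run.

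In the other 4 groups Myc was not called. It stood at 2.58, 2.96 and 2.27 CPM in Fura-2 and at 1.97, 2.20 and 2.04 in Di-2-ANEPEQ, the latter all just below the controls. In DiBASC2 it spread widely, with 1.87, 1.34 and 3.04 CPM. AAV libraries held 2.85, 2.88 and 3.35 CPM, all above the controls, with a log2 fold change of 0.35 and a 95% interval from −0.03 to 0.74 (adjusted p = 0.290). In Di-2-ANEPEQ the 95% interval ran from −0.61 to 0.22, so changes of this size were not detectable at the low counts of Myc.

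Cdkn1a (ENSMUSG00000023067.14, chr17:29090976-29100727) encodes p21, a CDK inhibitor known as a target of p53 that also answers to other signals. Control libraries held 64.9, 59.6 and 61.1 CPM. LPS libraries held 107, 107 and 116 CPM. (GT)6 SWCNT libraries held 92.7, 90.7 and 87.9 CPM and those of COOH SWCNT 91.8, 96.3 and 83.0. All 9 treated libraries lay above the controls. Cdkn1a rose 1.78-fold in LPS (log2 fold change 0.83 ± 0.0525, SE, adjusted p = 6.78e-16). It rose 1.46-fold in (GT)6 SWCNT (0.55 ± 0.0529, adjusted p = 1.57e-10) and 1.46-fold in COOH SWCNT (0.55 ± 0.0526, adjusted p = 4.51e-10). Myc and p21, known as a driver and a brake of the cycle, were thus both higher after these 3 treatments.

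Cdkn1a was not called in the dyes or AAV. Its levels were 67.8, 69.3 and 68.4 CPM in Fura-2, above every control library (log2 fold change 0.15, adjusted p = 0.275), and 64.5, 62.4 and 64.8 in Di-2-ANEPEQ. In DiBASC2 they were 52.8, 59.3 and 56.1 CPM, below every control library, with a log2 fold change of −0.14 (adjusted p = 0.136). In AAV they were 68.3, 67.3 and 60.6 CPM, overlapping control. A stretch of 273 of the 3553 exon bases of Cdkn1a overlaps an unclassified transcript on the other strand, and the use of strand in counting is not given in the sources used here.

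The D cyclins, which pair with Cdk4 and Cdk6 in early G1, were lower after LPS. Ccnd1 (chr7:144929931-144939925) stood at 184, 190 and 182 CPM in the control libraries. LPS libraries held 114, 120 and 116 CPM, and (GT)6 SWCNT libraries 147, 154 and 142. These 3 ranges did not overlap. In COOH SWCNT it stood at 188, 181 and 173 CPM, which overlapped control. Ccnd1 fell by 37.1% in LPS (log2 fold change −0.67 ± 0.0424, SE, adjusted p = 7.58e-16) and by 20.3% in (GT)6 SWCNT (−0.33 ± 0.0417, adjusted p = 9.45e-08). In COOH SWCNT its log2 fold change was −0.03, with a 95% interval from −0.12 to 0.05.

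Ccnd1 stood at 188, 191 and 190 CPM in Fura-2 and at 195, 179 and 178 in DiBASC2. Di-2-ANEPEQ libraries held 183, 182 and 195 CPM and AAV libraries 201, 188 and 194. All 4 groups overlapped control and Ccnd1 was called in none of them. Ccnd2 fell by 15.8% in LPS (log2 fold change −0.25, adjusted p = 1.09e-06) and by 9.81% in DiBASC2 (−0.15, adjusted p = 0.00911). The DiBASC2 call was lost without control replicate 2 (adjusted p = 0.0598) or without DiBASC2 replicate 2 (0.0616). Ccnd3 fell by 15.5% in LPS (−0.24, adjusted p = 1.37e-05) and was not called in any other treatment against control. Exons of all 3 D cyclin genes overlap a gene on the other strand (Ccnd1 by 1100 of 4709 bases), so part of their counts could belong to the partner.

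The E cyclins, which activate Cdk2 at the start of S phase, did not move as a pair. Ccne1 fell by 19.8% in LPS (log2 fold change −0.32, adjusted p = 2.55e-05) and by 12.6% in (GT)6 SWCNT (−0.19, adjusted p = 0.0103), the latter lost without control replicate 1 (0.0534). Ccne2 was not called in LPS, where its libraries held 70.9, 74.0 and 70.0 CPM against 64.3, 61.7 and 73.2 in control. It fell in (GT)6 SWCNT (−0.25, adjusted p = 0.0148), COOH SWCNT (−0.23, 0.0232) and Di-2-ANEPEQ (−0.34, 0.00741). Control replicate 3 was the highest control library for Ccne2, and without it none of the 3 was called (adjusted p 0.156, 0.197 and 0.102). The (GT)6 call was also lost without (GT)6 replicate 1 (0.0754), the COOH call without COOH replicate 2 (0.126) or 3 (0.0513), and the Di-2-ANEPEQ call without its replicate 2 (0.0746) or after removal of the length and GC trend (0.0633). DESeq2 called Ccne2 in neither nanotube group (0.0503 and 0.0518).

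Cdkn1b encodes p27, the CDK inhibitor of resting cells. Control libraries held 18.8, 20.03 and 21.9 CPM. LPS libraries held 14.2, 15.4 and 15.1 CPM and (GT)6 SWCNT libraries 14.3, 13.9 and 13.9. COOH SWCNT libraries held 19.6, 18.1 and 18.7 CPM. The LPS and (GT)6 libraries all lay below the controls, and COOH overlapped them. Cdkn1b fell by 26.4% in LPS (log2 fold change −0.44 ± 0.0811, SE, adjusted p = 3.98e-05) and by 30.6% in (GT)6 SWCNT (−0.53 ± 0.0810, adjusted p = 3.57e-06). The 2 CDK inhibitors thus moved in opposite directions in these 2 groups. Cdkn1b held 18.3, 18.99 and 20 CPM in Fura-2 and 22.2, 21.9 and 20.1 in DiBASC2. Di-2-ANEPEQ libraries held 17.7, 15.02 and 19.5 CPM. AAV libraries held 17.7, 17.0 and 18.4 CPM, where every one was below control at an adjusted p of 0.130.

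Among the E2F factors, E2f2, an activator of S-phase genes, moved furthest. Control libraries held 45.04, 45.2 and 47.9 CPM. LPS libraries held 32.5, 28.8 and 31.5 CPM and (GT)6 SWCNT libraries 34.8, 33.5 and 34.4. COOH SWCNT libraries held 38.98, 44.1 and 40.96 CPM. All 9 lay below control. E2f2 fell by 32.9% in LPS (log2 fold change −0.58 ± 0.0624, SE, adjusted p = 1.36e-09) and by 25.6% in (GT)6 SWCNT (−0.43 ± 0.0612, adjusted p = 1.00e-06), and was not called in COOH SWCNT (−0.16, adjusted p = 0.0560). Fura-2 libraries held 44.9, 50.6 and 46.1 CPM and DiBASC2 libraries 45.4, 47.5 and 44.5. Di-2-ANEPEQ libraries held 46.6, 47.8 and 49.3 CPM and AAV libraries 42.2, 49.2 and 47.9. These 4 groups overlapped control and E2f2 was not called in them.

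E2f1, the partner activator, moved less. Control libraries held 67.0, 71.2 and 67.1 CPM, LPS 68.7, 71.5 and 70.6, (GT)6 SWCNT 59.0, 64.5 and 60.8, and COOH SWCNT 63.9, 66.8 and 70.0. Of these 3 groups only (GT)6 SWCNT lay wholly below control. E2f1 fell by 10.3% in (GT)6 SWCNT (log2 fold change −0.16, adjusted p = 0.0132), a call lost without control replicate 2 (0.102) or (GT)6 replicate 1 (0.106). In LPS its 95% interval ran from −0.06 to 0.13. Fura-2 libraries held 73.2, 73.03 and 71.5 CPM and DiBASC2 libraries 76.1, 69.8 and 68.3. Di-2-ANEPEQ libraries held 72.7, 72.6 and 75.01 CPM and AAV libraries 73.01, 71.4 and 73.6. All libraries of Fura-2, Di-2-ANEPEQ and AAV lay above control, but E2f1 was not called in any of the 4 groups. E2f8, an atypical repressor, fell by 10.2% in LPS (−0.16, adjusted p = 0.0272) and fell by 13.03% in (GT)6 SWCNT (−0.20, adjusted p = 0.00549). Its LPS call was lost without LPS replicate 1 or 2 or control replicate 2 or 3 (adjusted p 0.0547 to 0.0927) and with the length and GC trend removed (0.144).

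**Figure D4:**
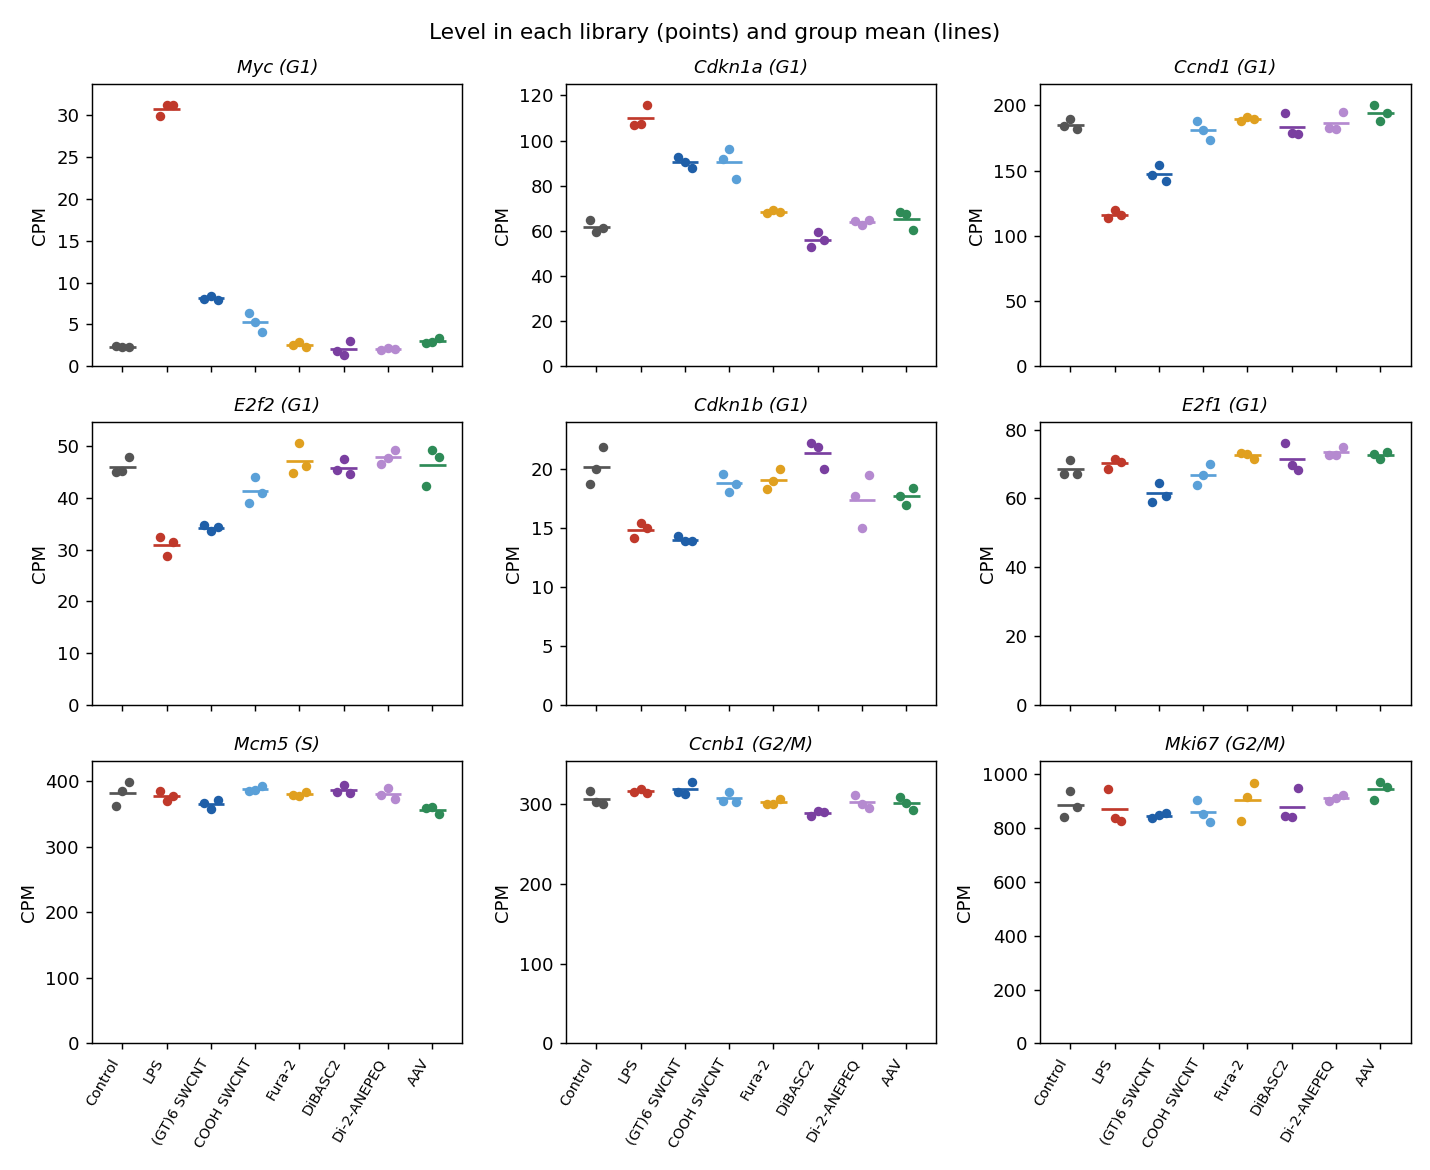
Level in each library (points, CPM) and group mean (lines) of 6 G1 genes, Mcm5 (S), Ccnb1 and Mki67 (G2/M) in the 8 groups, each axis starting at 0. Myc and Cdkn1a are above control in LPS and both nanotube groups, Ccnd1, E2f2 and Cdkn1b are below it in LPS and (GT)6 SWCNT, and Mcm5, Ccnb1 and Mki67 sit at a near-constant height.

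S-phase genes moved little. For LPS, (GT)6 SWCNT and COOH SWCNT the median log2 fold change of the 13 was −0.02, −0.02 and 0.01, beside −0.01, −0.02 and 0.00 over all genes. The share called was below the background in LPS (2 of 13, 15.4%, against 28.3%) and (GT)6 SWCNT (15.4% against 20.4%) and above it in COOH SWCNT (4 of 13, 30.8%, against 20%). The 95% interval lay within 1.25-fold of control for 12 of the 13 genes in LPS and (GT)6 SWCNT, 11 in COOH SWCNT and all 13 in each dye and AAV.

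Mcm5, a subunit of the replicative helicase, stood at 362, 385 and 399 CPM in control. LPS libraries held 385, 369 and 377 CPM, (GT)6 SWCNT 367, 358 and 372, and COOH SWCNT 385, 386 and 392.2. All of these overlapped control. Fura-2 libraries held 379, 377 and 383 CPM, DiBASC2 383, 395 and 382, and Di-2-ANEPEQ 378, 389 and 373. AAV libraries held 359, 360 and 350 CPM, below each control library, with a log2 fold change of −0.10 (95% interval −0.17 to −0.03, adjusted p = 0.0829). Mcm5 was not called in any treatment against control. Without control replicate 1 it was called lower in AAV (adjusted p = 0.0381) and (GT)6 SWCNT (0.0463), and DESeq2 called it lower in AAV (0.0372).

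The S genes that were called changed by small amounts. Cdc6, which loads the MCM helicase onto origins, fell by 16.9% in LPS (log2 fold change −0.27, adjusted p = 2.41e-05) and by 15% in (GT)6 SWCNT (−0.23, adjusted p = 0.000241), and both calls held under every alternative. Mcm6 fell by 6.23% in LPS (−0.09, adjusted p = 0.0494), a call lost with RLE factors (0.0893), without a low-count filter (0.110), in DESeq2 (0.0570) and when any 1 library other than LPS replicate 1 was left out. The LPS count was 1 without LPS replicate 2 or 3 or control replicate 2 or 3, and 6 with upper-quartile factors. Tyms, the thymidylate enzyme, fell by 9.10% in (GT)6 SWCNT (−0.14, adjusted p = 0.0191) and by 16.9% in COOH SWCNT (−0.27, adjusted p = 1.35e-05). The (GT)6 count was 1 without control replicate 3 or (GT)6 replicate 1 or 2, where Tyms was no longer called.

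3 S genes fell in COOH SWCNT and were lower there than in LPS too. Besides Tyms these were Gins2, a helicase partner, by 14.5% (log2 fold change −0.23, adjusted p = 0.000703) and Pcna by 10.6% (−0.16, adjusted p = 0.00371). The direct differences from LPS are given further on. Exons of Gins2 overlap Gse1 on the other strand over 2758 of 4097 bases. Mcm4 rose 1.10-fold in COOH SWCNT (0.14, adjusted p = 0.00834), 1.11-fold in Di-2-ANEPEQ (0.15, adjusted p = 0.0200) and 1.12-fold with AAV (0.17, adjusted p = 0.00726). These 3 calls share the control libraries and were all lost without control replicate 3, the lowest control library for Mcm4 (adjusted p 0.0656, 0.142 and 0.0757). Di-2-ANEPEQ then had no called S gene, as it had without control replicate 1 or its own replicate 2. In AAV Tyms also fell, by 10.5% (−0.16, adjusted p = 0.0250). The AAV count went from 2 to 0 without control replicate 3 and to 1 without AAV replicate 2 or 3. DiBASC2 called no S gene, with none at an unadjusted p under 0.05 and none in DESeq2.

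G2/M genes were also near control, and those called in LPS and (GT)6 SWCNT were mostly lower. The median log2 fold change of the 19 was −0.04 for LPS, −0.06 for (GT)6 SWCNT and −0.04 for COOH SWCNT, beside −0.01, −0.02 and 0.00 over all genes. The 95% interval lay within 1.25-fold of control for 18 genes in LPS, 17 in (GT)6 SWCNT and 19 in each other treatment. LPS called 8 of 19 (42.1%, against 28.3% of all genes), 1 higher and 7 lower. (GT)6 SWCNT called 5 (26.3% against 20.4%), and COOH SWCNT called 4, 2 higher and 2 lower (21.1% against 20%). These 2 shares, counted in either direction, lie near those of all genes. All 5 calls in (GT)6 SWCNT were lower, and that share was above the 10.6% of all genes called lower there.

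Ccnb1, the cyclin that drives entry into mitosis, was not called in any treatment. Control libraries held 317, 302 and 300 CPM, those of LPS 316, 319 and 314, of (GT)6 SWCNT 315, 313 and 328, and of COOH SWCNT 304, 316 and 303. Fura-2 libraries held 300, 300 and 306 CPM and Di-2-ANEPEQ 312, 300 and 295. DiBASC2 held 285, 292 and 290 CPM, all below control (log2 fold change −0.09, adjusted p = 0.150), and AAV 308, 301 and 293. The bound of the 95% intervals farthest from control was −0.15, in DiBASC2.

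Mki67, the gene of the Ki-67 protein used to count cycling cells, was level too. Control libraries held 842, 937 and 877 CPM, LPS 947, 839 and 825, (GT)6 SWCNT 837, 847 and 855, and COOH SWCNT 903, 853 and 824. Fura-2 libraries held 827, 917 and 967 CPM, DiBASC2 844, 840 and 951, Di-2-ANEPEQ 900, 912 and 922, and AAV 904, 973 and 954. Every group overlapped control. In LPS the log2 fold change was −0.03 with a 95% interval from −0.13 to 0.08, and in AAV it was 0.09 with an interval from −0.02 to 0.20.

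The called G2/M genes in LPS were led by Ttk, the Mps1 kinase of the spindle checkpoint. Its control libraries held 49.1, 50.02 and 47.5 CPM, LPS libraries 42.3, 38.4 and 34.4, and (GT)6 libraries 38.3, 36.9 and 41.7. Ttk fell by 21.7% in LPS (log2 fold change −0.35, adjusted p = 1.89e-05) and by 20.5% in (GT)6 SWCNT (−0.33, adjusted p = 7.54e-05). Bub1b, of the same checkpoint, fell by 12.3% and 14.5% (−0.19 and −0.23, adjusted p = 0.000582 and 9.61e-05). Foxm1, the transcription factor of G2/M genes, fell by 12.8% in LPS (−0.20, adjusted p = 0.00164) and Plk1, a mitotic kinase, by 10.5% (−0.16, adjusted p = 0.00408). These calls held under every alternative.

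Ccna2, Kif20a and Aurkb, whose proteins act from S phase to cytokinesis, also fell in LPS. Ccna2 fell by 7.62% (adjusted p = 0.0183), a call lost without LPS replicate 2 or 3 or control replicate 1. Kif20a fell by 7.85% (adjusted p = 0.0164), a call lost without LPS replicate 2 or 3 or control replicate 3. Aurkb fell by 9.53% (adjusted p = 0.00647), a call lost without control replicate 2 (0.0902). Top2a, topoisomerase II, rose by 10.9% in LPS (log2 fold change 0.15, adjusted p = 0.0113), a call lost without LPS replicate 1 (0.130) or control replicate 1 or 3 and with upper-quartile factors (0.0755). In (GT)6 SWCNT Cenpf, a kinetochore gene, fell by 15.9% (−0.25, adjusted p = 0.000272), Kif20a by 9.83% (−0.15, adjusted p = 0.00340) and Ccna2 by 7.07% (−0.11, adjusted p = 0.0391). The Ccna2 call in (GT)6 SWCNT was lost in DESeq2 (0.0564), with RLE factors, and without control replicate 1 or 2 or (GT)6 replicate 1 or 2. Kif20a shares 1271 of 4338 exon bases with Cdc23 on the other strand.

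The 4 G2/M calls in COOH SWCNT moved when single libraries were left out. Foxm1 rose by 9.60% (log2 fold change 0.13, adjusted p = 0.0434) and Top2a by 9.40% (0.13, adjusted p = 0.0396). Birc5, an inhibitor of apoptosis and a chromosomal passenger, fell by 8.14% (−0.12, adjusted p = 0.0463) and Cenpf by 9.42% (−0.14, adjusted p = 0.0403). The count was 0 without control replicate 3, 1 without control replicate 1 or 2 or COOH replicate 1, and 2 without COOH replicate 2.

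Cdk1, the mitotic kinase, was the single G2/M gene called in DiBASC2, Di-2-ANEPEQ and AAV. Control libraries held 150, 149 and 154 CPM. DiBASC2 libraries held 136, 135 and 132 CPM, Di-2-ANEPEQ 136, 132 and 131, and AAV 134, 131 and 128. All 9 lay below the shared controls, whereas LPS libraries held 146, 161 and 156. Cdk1 fell by 10.8% in DiBASC2 (log2 fold change −0.17, adjusted p = 0.00538), 11.6% in Di-2-ANEPEQ (−0.18, adjusted p = 0.00507) and 13.3% in AAV (−0.21, adjusted p = 0.00128), and these calls held under every alternative. Fura-2 libraries held 134, 138 and 134 CPM, a decrease of the same order that was not called (−0.16, adjusted p = 0.0594). COOH SWCNT libraries held 141, 143 and 144 CPM, also below control and not called (−0.08, adjusted p = 0.149).

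Medians and sums over each list show which libraries moved. The median log2 ratio of the 11 tested G1 genes to their control mean was −0.22 to −0.21 over the LPS libraries and −0.20 to −0.13 over those of (GT)6 SWCNT, against −0.03 to −0.01 in control. It was −0.02 to −0.10 in COOH SWCNT and 0.07 to 0.09 in AAV. The sum of the G1 genes was 946 ± 13.2 CPM (SD, n = 3) in control, 865 ± 7.48 in LPS, 878 ± 18.4 in (GT)6 SWCNT and 986 ± 5.50 in AAV. AAV called no G1 gene, with 4 of 11 at an unadjusted p under 0.05, and DESeq2 called 1, as did edgeR without AAV replicate 1. The sum of the S genes was 3627 ± 39.2 CPM in control and lay between 3526 and 3675 in the group means, and that of the G2/M genes was 3749 ± 78.0 in control and between 3611 and 3794.

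**Figure D5:**
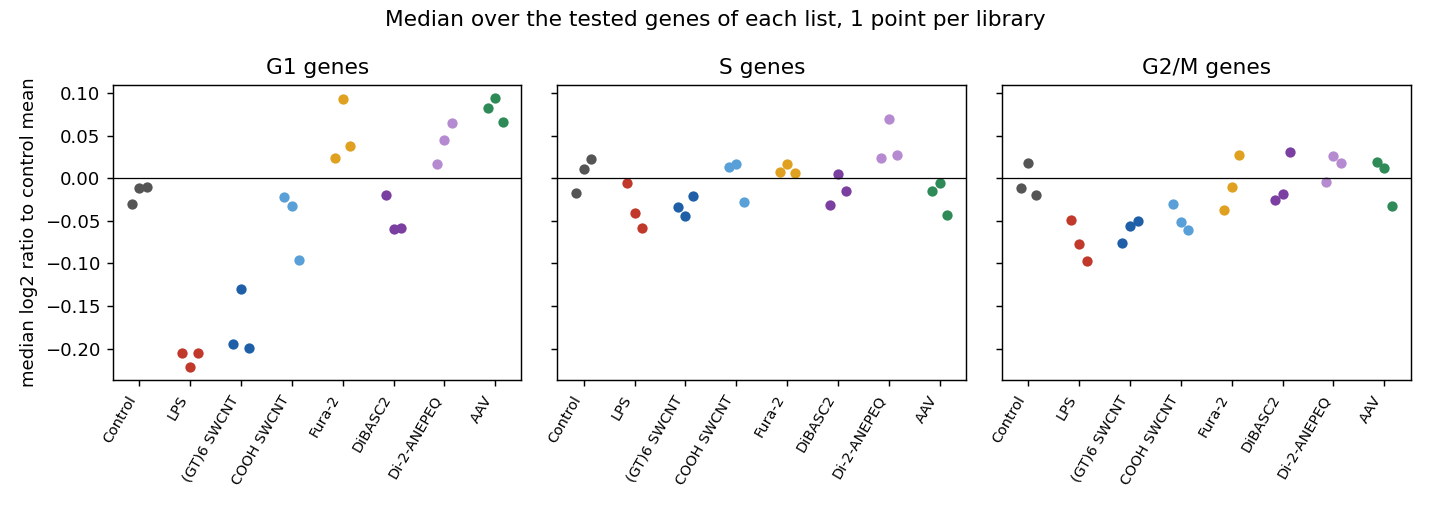
Median log2 ratio to the control mean over the tested G1, S and G2/M genes, 1 point per library, by group. G1 medians of LPS (−0.22 to −0.21) and (GT)6 SWCNT (−0.20 to −0.13) lie below every other library, and S and G2/M medians lie within 0.1 of 0.

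The 2 nanotube preparations were compared directly, where 21.4% of all genes were called (11.9% higher in (GT)6 SWCNT, 9.50% lower) and 12 of the 43. Upper-quartile scaling put 44.4% of the calls on the higher side in (GT)6, where TMM put 55.5%. Myc was 1.54-fold higher in (GT)6 SWCNT than in COOH SWCNT (log2 difference 0.62, adjusted p = 0.00116). Ccnd1 (−0.29, adjusted p = 1.99e-06), Cdkn1b (−0.42, 0.000164) and E2f2 (−0.27, 0.00134) were lower in (GT)6, and these 4 calls held under every alternative. Ccnd3 was also lower (−0.12, adjusted p = 0.0371), lost without any of the (GT)6 libraries or COOH replicate 2 and after removal of the length and GC trend (0.705). Cdkn1a did not separate them: the log2 difference was 0.00 with a 95% interval from −0.10 to 0.11.

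Of the S genes, Pcna, Tyms and Gins2 were higher in (GT)6 than in COOH SWCNT (0.14, 0.13 and 0.16, adjusted p = 0.00991, 0.0282 and 0.0146). None was called without (GT)6 replicate 3, and 1 was called without COOH replicate 1. Of the G2/M genes, Foxm1 (−0.21, adjusted p = 0.00118), Plk1 (−0.14, 0.0120) and Ttk (−0.19, 0.0221) were lower in (GT)6 and Birc5 (0.12, 0.0403) higher. The 4 became 2 without (GT)6 replicate 2 or COOH replicate 1 or 2.

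Against LPS, 21.6% of all genes were called in (GT)6 SWCNT (9.63% higher, 11.9% lower) and 11 of the 43. Upper-quartile factors moved the higher share of all called genes from 44.6% to 57.5%. Myc was lower than in LPS (log2 difference −1.92, adjusted p = 2.27e-16), and so were Ccne2 (−0.36, 0.000327), Cdkn1a (−0.28, 3.80e-05) and E2f1 (−0.19, 0.00186). Ccnd1 (0.34, adjusted p = 4.68e-08), Ccnd2 (0.21, 1.94e-05) and Ccnd3 (0.13, 0.0171) were higher, the last lost without LPS replicate 1 or (GT)6 replicate 2. Cdkn1b and E2f2 were not called between these 2 groups. The S count of 2 (Cdt1 higher, 0.11, adjusted p = 0.0411, and Tyms lower, −0.17, 0.00282) became 1 without any LPS library or (GT)6 replicate 1 or 2. The G2/M count of 2 (Bub1 lower, −0.13, adjusted p = 0.0441, and Cenpf lower, −0.16, 0.0205) became 0 without LPS replicate 1 or (GT)6 replicate 1 or 2 and 4 without (GT)6 replicate 3.

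COOH SWCNT differed from LPS in 37.8% of all genes (18.1% higher, 19.7% lower) and in 25 of the 43 (58.1%), with 62.5% of all called genes higher under upper-quartile factors and 47.9% under TMM. Myc was lower than in LPS (log2 difference −2.54, adjusted p = 1.75e-19), as were Ccne2 (−0.35, 0.000293) and Cdkn1a (−0.29, 1.65e-05). Ccnd1 (0.64, adjusted p = 4.03e-15), E2f2 (0.42, 1.03e-06), Cdkn1b (0.34, 0.000864), Ccne1 (0.26, 0.000253), Ccnd3 (0.25, 6.09e-06) and Ccnd2 (0.23, 2.83e-06) were higher. Of the 8 S genes called, Cdt1 (0.18, adjusted p = 0.000228) was the highest and Tyms (−0.30, 5.06e-07) the lowest, with Gins2 (−0.23, 0.000232) and Pcna (−0.16, 0.00164) also lower. Cdc6 (0.16, adjusted p = 0.00708), Mcm6 (0.13, 0.00276), Mcm7 (0.10, 0.0164) and Mcm4 (0.10, 0.0423) were higher. Of the 8 G2/M genes called, Foxm1 (0.33, adjusted p = 6.31e-07) and Plk1 (0.24, 1.82e-05) led those higher and Cenpe (−0.19, 0.000495) those lower. Ttk (0.21, adjusted p = 0.00581), Aurkb (0.16, 0.00164) and Ccna2 (0.11, 0.0238) were also higher, and Cdc20 (−0.13, 0.00888) and Cdk1 (−0.11, 0.0193) lower. The G2/M count became 4 without LPS replicate 3, where Ttk, Ccna2, Cdc20, Cdk1, Mcm4 and Mcm7 lost their calls. Calls were also lost without LPS replicate 2 (Mcm4, Ccna2, Cdk1), without COOH replicate 1 (Mcm4, Mcm7, Cdk1), 2 (Mcm4, Ccna2) or 3 (Cdc20), and for Cdc6 after removal of the length and GC trend (0.0789).

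Neighbouring genes of the cycle were read from 8 further lists, which were chosen with earlier results of these data known. A share called above that of all genes is therefore no independent result for these lists. How much the choice of genes adds to the shares was not tested. Of 14 p53 targets, 6 rose and 2 fell in LPS, 8 rose and 1 fell in (GT)6 SWCNT, and 7 rose and 1 fell in COOH SWCNT. The shares called were 57.1%, 64.3% and 57.1%, against 28.3%, 20.4% and 20% of all genes. Their median log2 fold changes were 0.32, 0.57 and 0.32, beside medians near 0 over all genes. The growth-arrest genes Gadd45a (3.27) and Gadd45b (2.39) led in LPS, and the antiproliferative gene Btg2 (1.61 and 0.97) and the kinase gene Plk2 (1.37 and 0.81) led in the nanotube groups. Sesn1, a stress-response target of p53, fell in all 3 (−0.97, −0.96 and −0.37). The list did not move as 1 in LPS, where 6 targets were called higher, 2 were called lower and 6 were not called. Over all genes 13.8% were called higher in LPS and 14.5% lower. The LPS libraries of Zmat3 and Ccng1 lay wholly below control, and those of Bax overlapped control. Whether p53 activity changed was not tested. In DiBASC2 5 of the 14 were called (35.7%, against 5.47% of all genes). Of these 1 rose, Sesn1 (0.43), and 4 fell, Btg2 (−0.49) furthest.

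MYC works with MAX, and the MXD and MNT proteins compete with it. Of 10 such genes, 5 were called in LPS (50%, against 28.3% of all genes): Mxd1 (1.17) and Zbtb17 (0.43) rose furthest, and Mxd3 (−1.14) and Mnt (−0.68) fell furthest. In COOH SWCNT 3 rose (30% against 20%), among them Mnt (0.33). In (GT)6 SWCNT 1 rose and 3 fell (40% against 20.4%), Mxd3 (−1.17) falling furthest, and 2 were called without control replicate 1 or 2 or (GT)6 replicate 2. Of 14 growth genes known as MYC targets, 3 rose and 0 fell in LPS, and 1 rose and 0 fell in (GT)6 SWCNT. The shares called in either direction were 21.4% and 7.14%, below the 28.3% and 20.4% of all genes. The share that rose was above the 13.8% of all genes called higher in LPS and below the 9.90% in (GT)6 SWCNT. The LPS count was 5 with RLE factors or DESeq2 and 7 after the length and GC correction, all higher. Odc1, the first enzyme of polyamine synthesis, rose in LPS and (GT)6 SWCNT (0.66 and 0.65) and in COOH SWCNT (0.35), and fell in DiBASC2 (−0.30). The (GT)6 count was 3 without control replicate 1 and 2 without (GT)6 replicate 2. In COOH SWCNT 3 rose and 4 fell (50% against 20%), with Ncl (−0.22), the nucleolin gene, lowest, and 3 in all were called without control replicate 1 and 4 without COOH replicate 1.

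Of 30 further DNA replication genes, 2 rose and 8 fell in LPS, 10 fell in (GT)6 SWCNT, and 1 rose and 13 fell in COOH SWCNT, with medians of −0.06, −0.11 and −0.11. The share called was near that of all genes in LPS (33.3% against 28.3%) and above it in (GT)6 SWCNT (33.3% against 20.4%) and COOH SWCNT (46.7% against 20%). Orc1, the origin recognition subunit, rose in LPS (0.85), where Gins3 fell furthest (−0.50). Tk1, a thymidine kinase, fell furthest in (GT)6 SWCNT (−0.37), and Rfc4, a clamp loader subunit, in COOH SWCNT (−0.35). Of 30 further mitotic genes, 1 rose and 6 fell in LPS, 10 fell in (GT)6 SWCNT and 8 fell in COOH SWCNT. The share called was 23.3% in LPS, below the 28.3% of all genes, 33.3% in (GT)6 SWCNT (against 20.4%) and 26.7% in COOH SWCNT (against 20%). Prc1, a crosslinker of the central spindle, was the gene that rose in LPS (0.19), and the kinetochore gene Spc25 fell furthest in COOH SWCNT (−0.28), with Ccnf lowest in LPS (−0.31) and (GT)6 SWCNT (−0.28). The (GT)6 replication count became 5 without (GT)6 replicate 1 or 2, and the mitotic counts became 4 (LPS, without LPS replicate 3), 4 and 6 ((GT)6, without (GT)6 replicate 1 and 2) and 5 (COOH, without COOH replicate 1).

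Of 17 tested CDK, RB and E2F pathway genes, 4 rose and 3 fell in LPS (41.2% against 28.3% of all genes), with E2f5 highest (0.33) and the inhibitor Cdkn2c (−0.47) and the RB relative Rbl2 (−0.34) lowest. In (GT)6 SWCNT 3 rose and 3 fell (35.3% against 20.4%), Cdk6 highest (0.22) and Cdkn2c (−0.33) and Rbl2 (−0.26) lowest, and 2 in all were called without control replicate 3 or (GT)6 replicate 1. In COOH SWCNT 2 were called (11.8% against 20%): Cdk6 rose (0.20) and Tfdp1 fell (−0.10), a call lost without control replicate 2 or 3 or COOH replicate 2 or 3. Of 7 brakes on mitotic entry and exit, Fbxo5, the APC/C inhibitor Emi1, fell in LPS (−0.31), (GT)6 SWCNT (−0.28) and COOH SWCNT (−0.24), and Wee1, which inhibits Cdk1, fell in LPS (−0.26). In all 2 of these 7 rose and 2 fell in LPS (2 called without LPS replicate 2), 1 rose and 2 fell in (GT)6 SWCNT, and 1 rose and 1 fell in COOH SWCNT. The shares called of the 7 were 57.1%, 42.9% and 28.6%, against 28.3%, 20.4% and 20% of all genes. Cdc14a, a phosphatase gene, fell furthest in (GT)6 SWCNT (−0.43), and Pkmyt1, which like Wee1 inhibits Cdk1, was highest in COOH SWCNT (0.24). Of 7 MuvB and MYB genes, Mybl2, known as B-MYB, fell in LPS (−0.21) and (GT)6 SWCNT (−0.14), and the other 6 were not called in either, though 2 of the 7 were called in LPS without control replicate 2. The share called was 14.3% in each, below the 28.3% and 20.4% of all genes. COOH SWCNT called none of these 7 MuvB and MYB genes (against 20% of all genes), with none at an unadjusted p under 0.05 and none in DESeq2, but 1 lower after removal of the length and GC trend. Of the 129 tested genes of these 8 lists together, Fura-2 called none (14 at an unadjusted p under 0.05, and 1 mitotic gene in DESeq2). DiBASC2 called 12 of the 129, Di-2-ANEPEQ 3 and AAV 9. Over all genes the shares called were 0.252% in Fura-2, 5.47% in DiBASC2, 3.08% in Di-2-ANEPEQ and 5.00% in AAV. Apart from the p53 targets in DiBASC2, the counts per list in these groups were 2 or fewer. Each of these counts above 0 changed by over 1.5 times when some control or treated library was left out. Counts of 0 stayed at 0 in such fits, except that 1 mitotic gene was called in DiBASC2.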

How the data were processed

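The authors deposited 1 table of read counts per gene for the 24 libraries, per its column names, and its values are whole numbers with no normalization. The submitters' processing notes name STAR 2.5.4b and the genome build GRCm38.p6. The counting tool, the annotation release and the use of strand are not given in the sources used here. The labels spell some dyes in several ways (DiBASC2 also as DiSBAC2), and columns were matched by title.

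The analysis used edgeR 4.0.16 (R 4.3.3): genes passing filterByExpr, TMM factors, and 1 quasi-likelihood model of the 8 groups without covariates, tested on simulated data first. Adjusted p-values are Benjamini-Hochberg over all genes tested. CPM are counts relative to the TMM-scaled library size, and CPM per kb divide them by exon length in GENCODE M21. Group means are given with the SD over 3 libraries, and fold changes with the SE or 95% interval of the model. Depth limits the precision of low genes such as Myc and E2f7. Alternatives were RLE and upper-quartile factors, no filter or a mean of at least 50 counts, a replicate block, a length and GC correction, fits of 2 groups only, DESeq2 1.42.0, and each library left out.

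The 44 genes and all other lists were chosen with earlier results of these data known. Shares called in a list are thus no independent result when set against those of all genes. Values in every library are given for Myc, Ccnd1, Cdkn1a, E2f1, Mcm5, Ccnb1 and Mki67 and for genes called against control at 0.5 or more on the log2 scale in either direction (E2f2, Cdkn1b). Other genes called are named with their log2 difference, and from the 8 further lists some of the highest and lowest called. Values of Ttk, Cdk1 and Ccne2 by library were added after their values were seen.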

Additional observations from a re-analysis of the deposited data

How the results depend on the processing

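Of 102 calls of a cell-cycle gene in a comparison, 62 were made under every alternative and 40 were lost under at least 1, with no change of sign. Of 40 uncalled values followed, 2 gained a call. The counts that moved were small. S genes called in LPS were 1 with RLE factors, no filter, a mean of at least 50 counts, only 2 groups or DESeq2, and 6 with upper-quartile factors. S genes called in (GT)6 SWCNT were 1 with no filter. G2/M genes called in COOH SWCNT were 2 with upper-quartile factors or no filter. DESeq2 called 1 G2/M gene in Fura-2. In Di-2-ANEPEQ, G1 genes called were 0 after the length and GC correction, and S genes called were 2 with upper-quartile factors, a mean of at least 50 counts, that correction or DESeq2, and 3 with only 2 groups. In AAV, G1 genes called were 1 with no filter or DESeq2, S genes 4 with the length and GC correction or DESeq2, and G2/M genes 2 with a mean of at least 50 counts and 3 with the correction. Between (GT)6 and COOH SWCNT, G1 genes called were 8 with upper-quartile factors and S genes 5 with a mean of at least 50 counts. Between (GT)6 SWCNT and LPS, S genes called were 1 with no filter, the correction or only 2 groups, and G2/M genes 1 with no filter or only 2 groups. The cause of these moves was not tested.

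With 1 library left out at a time, S genes called ranged from 1 to 3 in LPS and in (GT)6 SWCNT, from 0 to 1 in Di-2-ANEPEQ, from 0 to 3 in AAV, from 0 to 3 between the nanotubes and from 1 to 2 between (GT)6 SWCNT and LPS. G1 genes called ranged from 0 to 1 in DiBASC2 and in AAV and from 0 to 2 in Di-2-ANEPEQ. G2/M genes called ranged from 0 to 4 in COOH SWCNT, from 2 to 4 between the nanotubes, from 0 to 4 between (GT)6 SWCNT and LPS, and from 4 to 8 between COOH SWCNT and LPS.

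The replicate numbers do not pair the libraries: deviations from the group means correlated at −0.104 to 0.0696 over 30 same-numbered pairs, with 0 above 0.1. With the replicate number as a block, S genes called were 1 in LPS and 1 between (GT)6 SWCNT and LPS, and G2/M genes called were 2 in COOH SWCNT and 1 between (GT)6 SWCNT and LPS.

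The 8 further lists were run under the same alternatives, a step chosen after seeing the data. Of 85 named calls 31 were lost under at least 1 alternative, with no change of sign. MYC growth genes called in LPS were 5 with RLE factors or DESeq2 and 7 after the length and GC correction, against 3. In (GT)6 SWCNT they were 2 with RLE factors, a mean of at least 50 counts or the correction and 3 with only 2 groups or DESeq2, against 1. MuvB and MYB genes called in LPS were 2 with RLE factors, no filter, only 2 groups or DESeq2, against 1, and in COOH SWCNT 1 after the correction, against 0. CDK, RB and E2F genes called in COOH SWCNT were 1 with upper-quartile factors, no filter or only 2 groups, against 2. In the dyes and AAV the counts of these lists moved more often. Mitotic genes called were 5 in Di-2-ANEPEQ with only 2 groups and 4 in AAV after the correction, against 2 each, and replication genes called in DiBASC2 went from 2 lower to 1 higher with upper-quartile factors.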
